A study of Mus musculus with 9 samples.

Results

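White adipose tissue of male C57BL/6 mice fed a high fat diet and given B-LGND2 was compared with that of mice fed a normal diet and given vehicle, so that diet and ligand differed together. The comparison used 6 of the 9 libraries of the study: the 3 labelled high fat diet with B-LGND2 and the 3 labelled normal diet with vehicle. C57BL/6 is a common inbred laboratory strain, and both treatments lasted 9 weeks. The labels give no genetic change in any group, no dose of B-LGND2 and no age. The remaining 3 libraries came from mice on the high fat diet given vehicle and are shown only beside the comparison. Since no group received B-LGND2 on the normal diet, a part due to diet and a part due to the ligand cannot be told apart within this comparison.

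White adipose tissue stores energy as triglyceride in large fat cells and also holds blood vessel cells, fibroblast-like precursors and immune cells. Feeding a high fat diet is a widely used way to make mice gain fat mass, and fat tissue under such a diet is known to change its lipid handling and its immune cell content. The series title places B-LGND2 with ligands of estrogen receptor beta, a nuclear receptor that binds DNA and changes transcription when a ligand is bound. Each value below belongs to a row of the deposited table, named by a GI number, which is an older running number for sequence records. Nothing in the files used here links such a number to a gene, so the tissue label was not checked against marker genes, no gene list or marker of another cell type was tested, and 4 rows are named by number alone. In bulk tissue, fewer cells of a type and less RNA per cell cannot be told apart.

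The 6 libraries held between 30425256 and 43129222 counts. Levels are in CPM, counts relative to the scaled library total, and 1 CPM stood for 27.9 to 44.4 counts. Of 39130 rows, 27680 were abundant enough to be tested. The series text gives 3 per group and does not tie libraries to separate animals, so p-values measure only the spread between these samples, which may be technical.

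A library in each group stood apart from the other 2 of its group, and this bears on every result that follows. Normal diet vehicle replicates 1 and 3 correlated at a Pearson r of 0.991 across 27680 rows on the log2(CPM + 0.5) scale, and B-LGND2 replicates 1 and 3 at 0.987. The library labelled normal diet vehicle replicate 2 correlated with these normal diet libraries at only 0.861 and 0.854, and with B-LGND2 replicates 1 and 3 at 0.977 and 0.973. It was thus closer to the other group than to its own. The library labelled B-LGND2 replicate 2 lay between the groups, at 0.928 and 0.927 with its own group and 0.939 with each of normal diet vehicle replicates 1 and 3. By r it was thus slightly closer to these normal diet libraries than to its own group. With normal diet vehicle replicate 2 it was at 0.904. Over pairs of libraries, the mean r was 0.925 within groups (6 pairs) and 0.91 between groups (9 pairs). Rows share libraries and depth and are not replicates, so these values are descriptions without a test.

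**Figure D1:**
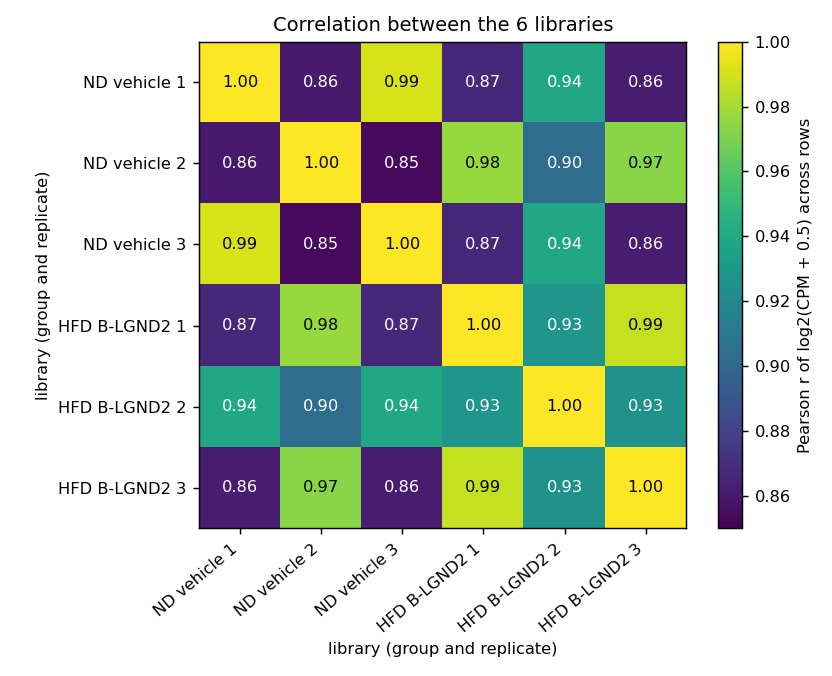
Pearson correlation of log2(CPM + 0.5) across 27680 rows for each pair of the 6 libraries, with libraries named by group and replicate (ND, normal diet; HFD, high fat diet) and the value printed in each cell. Normal diet vehicle replicate 2 is paler against B-LGND2 replicates 1 and 3 (0.98 and 0.97) than against its own group (0.86 and 0.85).

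The distance of these libraries from their groups was large in single rows. In the normal diet group, replicates 1 and 3 differed by over 2-fold in 1.43% of rows, whereas replicate 2 lay over 2-fold from their mean in 27.8%. In the B-LGND2 group the corresponding shares were 1.46% and 10.3%. The median SD of a row on the log2 scale was 0.35 over the 3 normal diet libraries and 0.13 without replicate 2, and 0.24 and 0.12 for B-LGND2. Results are therefore given with all 6 libraries and again without replicate 2 of both groups.

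With all 6 libraries weighted alike, no row passed the test. Limma-voom called 0 of 27680 rows higher with B-LGND2 and 0 lower at an adjusted p under 0.05, so the background share of called rows was 0% in each direction, and limma-trend also called 0. With weights for library quality on the same 6 libraries, limma-voom called 6075 rows higher and 6237 lower. The weight was 0.128 for normal diet replicate 2, 0.426 for B-LGND2 replicate 2 and 1.68 to 2.38 for the other 4. These weights let the 2 libraries that stood apart count for little. Of the 12312 rows called, 11376 (92.4%) were also called, in the same direction, without replicate 2 of both groups. The weighted fit is thus not separate support for these rows. In the fit without weights, the smallest adjusted p was 0.363 (limma-voom, Benjamini-Hochberg). At an unadjusted p under 0.05 in that fit, 1672 rows (6.04%) were higher and 1376 (4.97%) lower, 3048 or 11.0% in all. The middle 50% of rows in the fit without weights had log2 differences between -0.34 and 0.49, with a median of 0.06. The median standard error of a row was 0.36. Differences over 2-fold were fitted there for 2515 rows in the higher direction and 1979 in the lower.

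In the fits without weights, the count of 0 rested on 1 library. Without normal diet vehicle replicate 2, limma-voom called 2803 rows higher and 2506 lower. Leaving out any other single library, B-LGND2 replicate 2 included, gave 0 in each direction.

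The groups were fully separated, all 3 libraries of one above all 3 of the other, in 2422 rows higher with B-LGND2 (8.75% of tested rows) and 2242 lower (8.10%), 16.8% in all. Most of these separations were narrow. The median gap between the nearest libraries of both groups was 0.15 on the log2 scale for the higher rows and 0.14 for the lower ones. In a row whose 6 libraries are exchangeable, full separation in either direction has a probability of 0.1. Rows share libraries, so the share of separated rows can lie well above or below this without a group difference. The counts are therefore a description. Scaling decided the balance of directions: by total counts alone, 4815 rows were separated upward and 875 downward, and the median log2 difference of all rows moved from 0.06 to 0.22. By the median of ratios, 2041 were higher and 2676 lower.

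Separation differed in direction by level. Among the 9509 rows at 1 to 10 CPM, 11.4% were separated upward with B-LGND2 and 6.91% downward. Among the 1663 rows at 100 to 1000 CPM the order was the opposite, with 3.13% upward and 12.0% downward. The same reversal of order appeared with scaling by the median of ratios (9.86% and 8.28% at 1 to 10 CPM, 2.47% and 14.3% at 100 to 1000 CPM). With scaling by total counts alone it was absent at 100 to 1000 CPM, where more rows were separated upward (9.38%) than downward (3.73%). Among the 75 rows at 1000 CPM or more, that scaling gave 3 rows upward (4%) and 6 downward (8%).

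**Figure D2:**
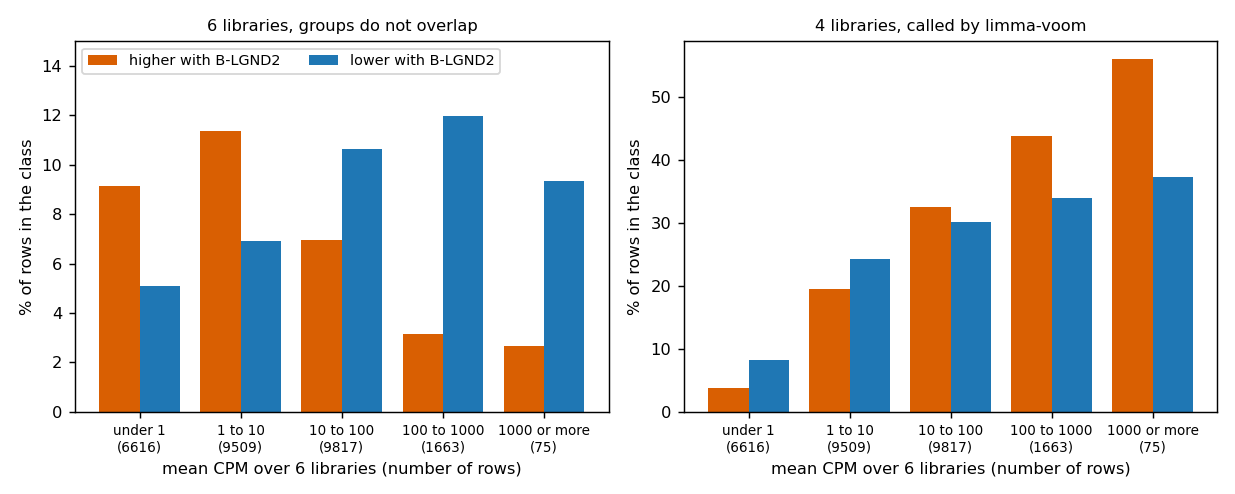
Percentage of rows in each class of mean CPM over the 6 libraries (number of rows in brackets), for rows higher (orange) and lower (blue) with B-LGND2. At left are rows whose groups do not overlap in 6 libraries, where 11.4% at 1 to 10 CPM were higher and 12.0% at 100 to 1000 CPM were lower, and at right rows called by limma-voom on 4 libraries, where 43.8% at 100 to 1000 CPM were higher.

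A small set of rows stood apart widely in all 6 libraries, replicate 2 of both groups included. In 36 rows (0.130% of those tested) the lowest B-LGND2 library was over 2-fold above the highest normal diet library, and in 34 rows (0.123%) the highest B-LGND2 library was over 2-fold below the lowest normal diet library. These rows were picked for their separation, so their levels are given as a description. In the 36 higher rows the median log2(CPM + 0.5) was 2.21, 2.20 and 2.13 in normal diet replicates 1 to 3 and 4.57, 4.24 and 4.55 in B-LGND2 replicates 1 to 3. In the 34 lower rows it was 3.87, 3.58 and 3.86 on the normal diet and 1.66, 1.11 and 1.32 with B-LGND2. In both sets each replicate 2 library had a median near those of its own group. All 70 rows had an unadjusted p under 0.05 in limma-voom with 6 libraries, which their choice favours, and 0 passed adjustment.

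The high fat diet vehicle libraries were not used in choosing these 70 rows and had intermediate medians. Choosing rows for a wide gap between the groups compared favours values in between for other libraries. The medians are therefore a description and do not by themselves show an intermediate state. In the high fat diet vehicle libraries they were 3.32, 2.93 and 3.29 in the 36 higher rows. In the 34 lower rows they were 3.13, 2.72 and 2.50, on the same log2 scale. Taken row by row, all 3 of these libraries were beyond all 3 normal diet libraries, in the direction of B-LGND2, in 18 of the 36 higher and 21 of the 34 lower rows. Against the midpoint between the group means, all 3 were on the B-LGND2 side in 5 of the 36 higher rows and on the normal diet side in 11, and they were split in 20. For the 34 lower rows these counts were 3, 1 and 30. No share over all tested rows stands beside these row counts, so they are a description.

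Among separated rows whose mean over the 6 libraries was 5 CPM or more, GI 46849704 had the smallest p of those higher with B-LGND2. It was at 2.49, 3.34 and 2.51 CPM in normal diet vehicle replicates 1 to 3 and at 11.7, 18.7 and 15.1 CPM in B-LGND2 replicates 1 to 3. Replicate 2 was the highest library in each group, and the groups were far apart. The means were 2.78 ± 0.49 CPM (SD, n = 3) and 15.2 ± 3.51 CPM (SD, n = 3), a fitted log2 difference of 2.43 ± 0.27 (SE) or 5.38-fold. After adjustment p was 0.363 (limma-voom). The high fat diet vehicle libraries were at 9.98, 6.23 and 6.93 CPM, above every normal diet library and below every B-LGND2 library.

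GI 94386581 had the largest fitted difference of the higher rows under the same conditions. Its levels were 1.24, 0.50 and 0.90 CPM on the normal diet and 9.60, 3.86 and 17.4 CPM with B-LGND2. The B-LGND2 libraries spread widely, and replicate 2 was the lowest of its group on both sides. The fitted log2 difference was 3.38 ± 0.70 (SE), or 10.4-fold, and p was 0.404 after adjustment (limma-voom). With vehicle on the high fat diet the row was at 2.68, 0.80 and 3.00 CPM, so that 1 of those 3 libraries lay within the normal diet range.

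The lower row with the smallest p was GI 149251591. It was at 48.0, 60.4 and 47.5 CPM in normal diet vehicle replicates 1 to 3 and at 8.27, 11.5 and 7.34 CPM with B-LGND2. Replicate 2 was again the highest of each group, and the lowest normal diet library was far above the highest B-LGND2 library. The fitted log2 difference was -2.56 ± 0.23 (SE), and limma-voom gave 0.363 as its adjusted p. High fat diet vehicle libraries were at 18.3, 11.5 and 11.3 CPM, all below the normal diet libraries, and 2 of them overlapped the B-LGND2 range.

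GI 10946671 had the largest fitted difference of the lower rows, and it shows how a separated row can rest on part of a group. It was at 268.4 and 259.6 CPM in normal diet vehicle replicates 1 and 3 but at 0.29 CPM in replicate 2, which was 8 counts. With B-LGND2 it was at 0.14, 0.24 and 0.14 CPM, or 6, 8 and 6 counts. Normal diet replicate 2 was therefore nearly as low as the B-LGND2 libraries, and the separation between the groups was a difference of 0.29 against 0.24 CPM from 8 counts each. The fitted log2 difference was -7.40 ± 4.34 (SE), and its adjusted p in limma-voom was 0.508. The high fat diet vehicle libraries were at 9.34, 55.1 and 36.2 CPM. For a single row, an exact two-sided permutation test of 3 libraries against 3 cannot give a p below 0.1, so it was not used to rank rows.

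**Figure D3:**
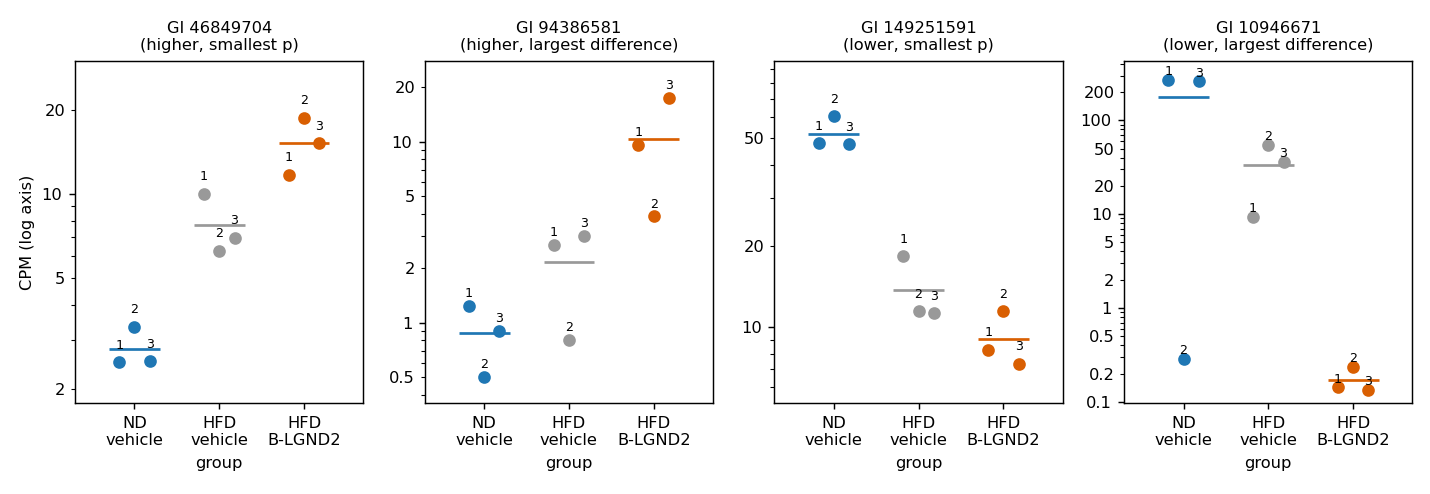
CPM of the 4 named rows on a log axis in every library of the 3 groups (ND, normal diet; HFD, high fat diet), with points numbered by replicate and bars at the group means. In GI 10946671 normal diet replicate 2, at 0.29 CPM, sits beside the B-LGND2 libraries, whereas in GI 149251591 it is the highest library at 60.4 CPM.

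Without replicate 2 of both groups, much of the table changed by the same test. Limma-voom on the remaining 4 libraries called 6071 rows higher with B-LGND2 (21.9% of tested rows) and 6403 lower (23.1%), 12474 or 45.1% in all. Leaving out libraries that stand apart lowers the spread by itself, and the 2 libraries kept in each group correlated at 0.991 and 0.987. With the 3 high fat diet vehicle libraries added to the estimate of the spread, calls fell to 2136 rows higher and 1891 lower. The median standard error fell from 0.36 to 0.23, and the 5th and 95th percentiles of the log2 differences widened from -1.26 and 1.27 to -2.36 and 1.89. Differences over 2-fold were fitted for 4284 rows higher and 4589 lower. Calls were more frequent in abundant rows, from 12.0% of rows under 1 CPM to 77.6% at 100 to 1000 CPM.

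All 4 named rows passed in this fit, and they had been chosen with its libraries among others. The log2 difference was 2.41 for GI 46849704 (adjusted p 9.3e-05, limma-voom) and 3.60 for GI 94386581 (adjusted p 0.000565, limma-voom). It was -2.62 for GI 149251591 (adjusted p 3.7e-06, limma-voom) and -10.78 for GI 10946671 (adjusted p 1.5e-06, limma-voom). The estimate for GI 10946671 moved from -7.40 to -10.78 and that of the other 3 by at most 0.22. These are the lowest adjusted p-values over all alternatives in limma, and the highest were 0.843 for the first 3 rows and 0.849 for GI 10946671.

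The 2 libraries left out took no part in these calls, but they had been set aside because they stood apart. Their values in the called rows restate that position row by row and are given as a description, not as a separate check of the calls. In the rows called higher on 4 libraries, replicate 2 with B-LGND2 was above replicate 2 on the normal diet in 20.6% (1251 of 6071), whereas over all tested rows it was above in 54.6%. In the rows called lower, it was below in 24.3% (1557 of 6403), against 45.4% of all rows. The direction in the left-out pair was therefore more often opposite to that of the 4 libraries than the same. The median difference between the left-out libraries was -0.51 on the log2 scale in the rows called higher, where the 4 libraries gave 1.19, and 0.46 in the rows called lower, where they gave -1.28. With 1 library on each side this comparison has no test.

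The opposite direction held under each scaling when set against all rows. By total counts alone, replicate 2 with B-LGND2 was above its counterpart in 39.9% of the rows called higher and in 71.0% of all rows, and below it in 11.1% of the rows called lower. By the median of ratios the shares were 17.2% of the rows called higher and 49.5% of all rows, and 28.0% of the rows called lower. Across all 27680 rows, the difference in replicates 1 and 3 and that in replicate 2 had a Pearson r of -0.58. Spearman's rho was -0.45. These values too restate the position of the left-out libraries and are not a separate check. Over the 11555 rows at 10 CPM or more, Pearson's r was -0.71. The share of rows that were higher in the replicate 2 pair fell from 93.3% where the 4 libraries gave a log2 difference of -3 or lower (974 rows) to 17.2% for a difference of 2 to 3 (1047 rows). It was 52.3% for differences over 3, where there were 109 rows.

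**Figure D4:**
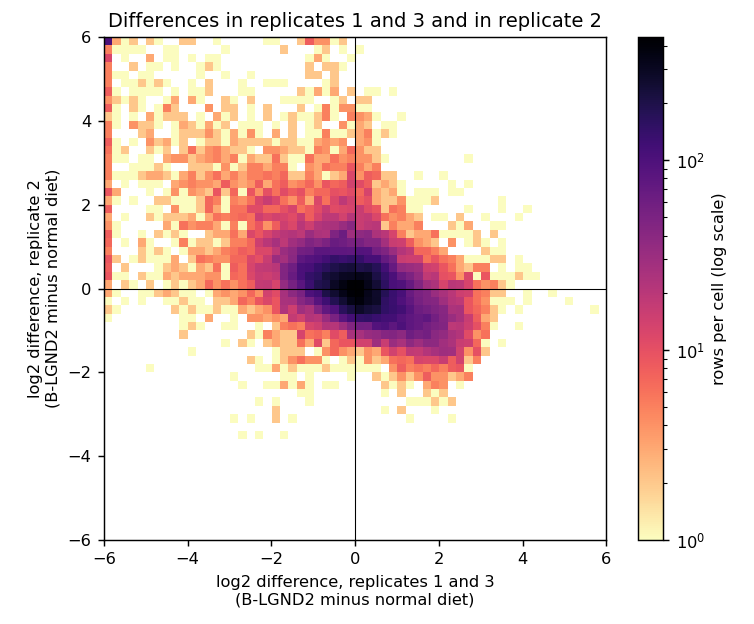
Number of rows (colour, log scale) by the log2 difference between B-LGND2 and the normal diet in replicates 1 and 3 (horizontal, fitted on 4 libraries) and in replicate 2 (vertical, 1 library each), for 27680 rows, with values beyond 6 on either side drawn in the outermost cells. The cloud runs from upper left to lower right, with a Pearson r of -0.58.

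The levels in these rows show the same position of the left-out libraries on the CPM scale. In the 6071 rows called higher, the median log2(CPM + 0.5) was 3.49 and 3.50 in normal diet replicates 1 and 3 and 4.64 and 4.70 in B-LGND2 replicates 1 and 3, by the choice of rows. The library labelled normal diet vehicle replicate 2 was at 4.63 and that labelled B-LGND2 replicate 2 at 4.17. In the 6403 rows called lower, normal diet replicates 1 and 3 were at 4.28 and 4.34, B-LGND2 replicates 1 and 3 at 2.59 and 2.60, and the left-out libraries at 2.63 (normal diet) and 3.68 (B-LGND2). As in the correlations, the normal diet library was near the opposite group and the B-LGND2 library between the groups. Row by row, normal diet replicate 2 lay nearer to the mean of B-LGND2 replicates 1 and 3 than to that of normal diet replicates 1 and 3 in 85.6% of the rows called higher and 86.3% of those called lower. B-LGND2 replicate 2 lay nearer to its own group in 59.6% and 51.1%. These shares were not computed over all tested rows, so they are a description. Over all tested rows the median log2(CPM + 0.5) was 2.51, 2.20 and 2.53 in normal diet replicates 1 to 3. It was 2.31, 2.62 and 2.39 in B-LGND2 replicates 1 to 3.

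The high fat diet vehicle libraries spread over the same range. In the rows called higher they were at 3.83, 4.45 and 4.30, and in the rows called lower at 3.89, 3.25 and 3.45. Over all tested rows their medians were 2.67, 2.47 and 2.97. Replicates 1 to 3 of that group lay nearer to B-LGND2 replicates 1 and 3 in 25.5%, 76.3% and 56.4% of the rows called higher. In the rows called lower these shares were 33.7%, 73.3% and 69.1%. No such shares were computed over all tested rows. Libraries of 1 treatment thus differed among themselves in the rows that set the 4 libraries apart, in this group as in both groups compared. Whether they differed more in these rows than in others was not tested. The cause was not tested.

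**Figure D5:**
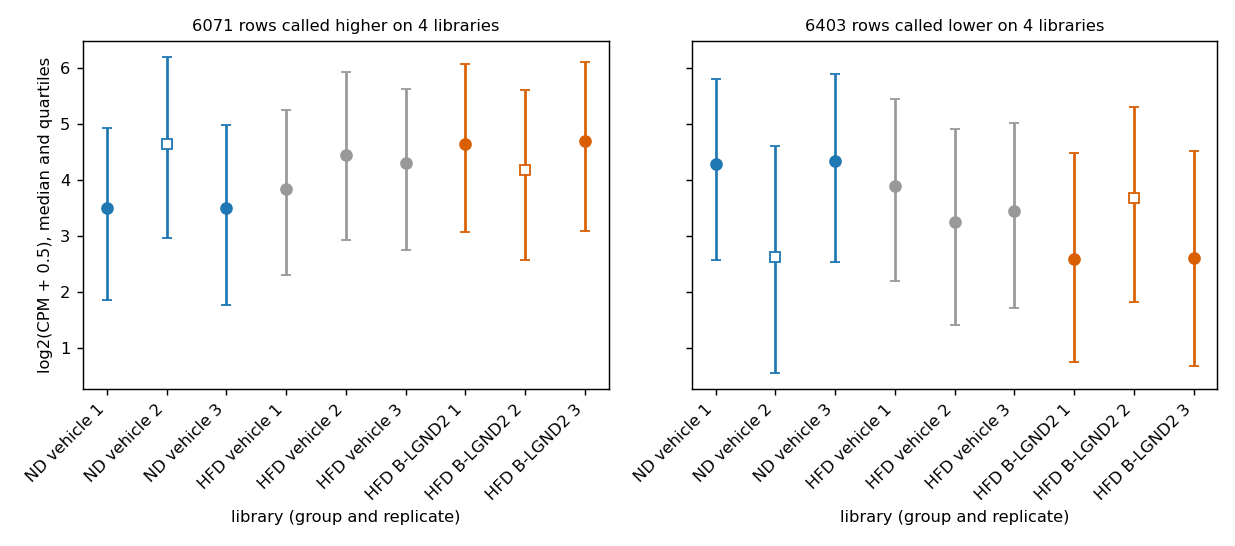
Median and quartiles of log2(CPM + 0.5) in each of the 9 libraries for the 6071 rows called higher (left) and the 6403 rows called lower (right) with B-LGND2 on 4 libraries (ND, normal diet; HFD, high fat diet). Open squares are the libraries left out of the calls, and normal diet vehicle replicate 2 sits at the level of B-LGND2 replicates 1 and 3 in both panels.

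Of the rows called on 4 libraries, 1104 of 6071 higher (18.2%) and 1302 of 6403 lower (20.3%) kept the groups apart in the same direction in all 6 libraries, where 8.75% and 8.10% of all tested rows did. The calls used 4 of those 6 libraries, which raises these shares by itself, so they are a description.

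The share of counts taken by the most abundant rows separated the groups in all 6 libraries. The 10 most abundant rows of each library took 14.9%, 16.5% and 15.8% of counts in normal diet vehicle replicates 1 to 3 and 13.0%, 9.21% and 12.7% with B-LGND2. Every normal diet library was above every B-LGND2 library. The means were 15.7 ± 0.823% (SD, n = 3) and 11.6 ± 2.11% (SD, n = 3), and an exact two-sided permutation test gave p = 0.1, the smallest this design allows. For the 100 most abundant rows the means were 30.9 ± 0.685% (SD, n = 3) on the normal diet and 25.8 ± 2.78% (SD, n = 3) with B-LGND2, again with an exact two-sided permutation p of 0.1. Without replicate 2 of both groups the differences shrank from -4.10 to -2.50 percentage points for the 10 and from -5.09 to -3.19 for the 100 most abundant rows, with an exact permutation p of 0.333 for each, the smallest that 2 libraries against 2 allow. The 4 measures tested in this way on 6 libraries also included total counts (exact permutation p = 0.7) and rows with at least 1 count (p = 0.3). High fat diet vehicle libraries had 12.0%, 11.3% and 7.34% of counts in their 10 most abundant rows, all below the normal diet libraries. These shares do not depend on scaling between libraries.

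The rows behind these shares differed from library to library. The 10 most abundant rows of the 6 libraries made up 23 different rows, of which 1 was among the 10 in every library. Of the 23, 11 had a lower mean with B-LGND2, 3 were lower without overlap and 0 higher without overlap. Of all tested rows, 8.10% were lower and 8.75% higher without overlap. Among the 75 rows at 1000 CPM or more, these shares were 9.33% and 2.67%. With 23 rows, the counts are a description.

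No row was present in one group alone by the measure used. None was at 0 counts in all 3 libraries of one group and at 1 CPM or more in all 3 of the other, in either direction (0 and 0 of 39130 rows).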

How the data were processed

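Poly(A) RNA of white adipose tissue was read on the Ion Proton platform, as the labels' protocols state. STAR 2.5.2 and mm9 appear in the submitters' processing notes, without a role. How reads were counted, with which annotation and strand setting, is not stated there, so any row that shares reads with a near copy, an overlapping gene or an antisense RNA is uncertain. The authors deposited raw counts per GI number (39130 rows), and the 6 largest counts are multiples of 10. None of the numbers matched a gene identifier of the RefSeq table at hand. An automated check could not read the table's unit, so negative binomial models were not used.

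Rows needed a CPM equal to 10 counts in a median library in at least 3 of the 6 libraries and 15 counts in all; 11450 were left out. Scaling used the trimmed mean of log ratios (trimming fractions of 0.3 and 0.05). Limma-voom (limma 3.58.1, R 4.3.3) was fitted to the 6 libraries, as a two-sided test. Rows with a Benjamini-Hochberg adjusted p under 0.05 were called. Other fits used the same rows unless the filter was the alternative. High fat diet vehicle levels were put on the same scale. The procedure was tested on simulated counts. No pair of the 6 libraries was a duplicate (smallest chi-square per degree of freedom over the 15 pairs 18.7). Replicate numbers follow the order of the records.

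Named rows were, in each direction, that with the smallest p and that with the largest difference among rows at a mean of 5 CPM or more without overlap. The comparison and these rules were chosen with earlier results of these data known. Alternatives were other scalings, filters, models and libraries. Figures used matplotlib 3.10.9 in Python 3.11.15.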

Additional observations from a re-analysis of the deposited data

How the results depend on the processing

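Called rows were counted anew 28 times, and 22 of the counts were 0. The exceptions were the fits without normal diet vehicle replicate 2 (2803 higher, 2506 lower), without replicate 2 of both groups (6071 and 6403) and with library quality weights (6075 and 6237). The weights were 0.128 for normal diet and 0.426 for B-LGND2 replicate 2 against 1.68 to 2.38 for the others. Leaving out each library gave 0 to 2803 higher and 0 to 2506 lower. The 6071 and 6403 rows became 2136 and 1891 with the high fat diet vehicle libraries in the fit, and stayed within 1.5 times with limma-trend, total counts alone and the median of ratios.

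At an unadjusted p under 0.05, total counts alone gave 3430 higher and 517 lower, the filter of 5 CPM 908 higher, quality weights 7239 and 7384, and leaving out replicate 2 of both groups 6930 and 7345. Leaving out each library gave 695 to 5338 higher and 530 to 4916 lower, with 695 without B-LGND2 replicate 1, 530 without B-LGND2 replicate 3 and the highest values without normal diet vehicle replicate 2. Rows without overlap numbered 4815 and 875 by total counts alone, 1126 and 1475 with the filter of 5 CPM, which leaves fewer rows, and 9833 and 10158 without replicate 2 of both groups. They ranged from 2657 to 8269 higher and 2666 to 7078 lower without each library. Fewer libraries overlap less often by construction; the cause of the other changes was not tested.

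The difference in the share of the 10 most abundant rows ranged from -4.77 to -2.89 percentage points without each library, and that of the 100 from -6.09 to -3.50. All 54 recomputed values of the named rows kept their direction and 11 passed the threshold, with adjusted p-values (limma) from 1.5e-06 to 0.849. The alternatives on these shares, on replicate 2 and on level classes, and the median of ratios for 4 libraries, were chosen after seeing the data. No paired analysis was possible because the labels pair no libraries.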
